A study of Mus musculus with 4 samples.

Results

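The ubiquitin ligases that restrain T cell signalling, with the adaptors that recruit them, were followed in thymocytes at the CD4+CD8+ double-positive (DP) stage. Mice with a Cre meant to delete Usp8, the gene of a deubiquitinase, were compared with mice without Cre. USP8 protein was not measured. The ligase and adaptor set holds 10 genes, Cbl, Cblb, Itch, Nedd4, Nedd4l, Ndfip1, Ndfip2, Rnf128, Peli1 and March1. Its members were found by gene name on the array, which gave 20 of 41174 probes, every probe of each gene being used. Of these, 13 probes of 7 genes were well above background on all 4 arrays, as flagged by the scanner software, and 7 probes were so on none. The 7 measured genes belong to a table of 13062 measured genes.

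The tested samples were sorted DP thymocytes of USP8ff_CD4Cre mice, in which both Usp8 alleles are flanked by loxP sites and Cre is driven by Cd4 regulatory sequences, which are active from the DP stage. They were set against the same cells of USP8ff mice, which carry the loxP-flanked alleles without Cre. Per the labels, all mice were untreated, sex-matched littermates of 6 to 12 weeks, and each array held the RNA of 2 pooled mice (8 mice in all), with 2 pools per genotype. No group carried Cre alone, so the deletion and the presence of Cre cannot be told apart, and p-values measure the spread between pools.

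The arrays were 1-colour Agilent arrays on 1 slide, and levels are given as log2 processed signal relative to the 75th percentile of the array. Between 18522 and 20137 probes were well above background per array, and correlations across genes were 0.993 to 0.995 within and 0.991 to 0.996 between the genotypes. All 12 markers of DP thymocytes were measured, and 9 had negative differences between the genotypes (median -0.11, and 12 of 12 with a median of -0.19 under quantile normalization). Their summed level, carried by the brightest markers Dntt and Cd8b1, was 10.80 and 10.82 in USP8ff_CD4Cre against 10.74 and 10.80 in USP8ff. Those were the 2 that lay wholly above USP8ff, and 5 of the 12 lay wholly below (24.3% and 16.3% of all genes). The smallest p were those of Rag2 (-0.33 ± 0.13) and Cd1d1 (-0.25 ± 0.12), with limma adjusted p of 0.671 and 0.697. Usp8 itself was at -1.03 and -1.23 in USP8ff_CD4Cre, against -0.23 and -0.40 in USP8ff, a log2 difference of -0.81 ± 0.13 (SE), which is 56.9% of the USP8ff signal (limma adjusted p = 0.597).

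Ubiquitin ligases attach ubiquitin to proteins and so mark them for degradation, sorting or altered activity, and deubiquitinases such as USP8 remove it. In T cells several ligases limit antigen receptor signalling, whereas NEDD4 promotes T cell activation. CBL and CBL-B are RING ligases that act on activated receptors and kinases, ITCH and NEDD4 are HECT ligases that the membrane adaptors NDFIP1 and NDFIP2 recruit and activate, and GRAIL, the product of Rnf128, is a membrane RING ligase tied to anergy. GRAIL is a known substrate of USP8 in T cells. Pellino-1 restrains T cell activation by acting on the NF-kB subunit c-Rel, and MARCH1 removes MHC class II and CD86 from the surface of antigen-presenting cells.

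The array reports these transcripts through probes of 60 bases, and those on which the results turn are shown here, 5′ to 3′ in the sense of the transcript. The whole probe is shown where it has 60 bases below, and otherwise its first 30 bases. The Ndfip2, Peli1, Nedd4, Cbl and Itch A_51_P243503 probes were measured, and the Itch A_52_P625780, Cblb, Rnf128 and March1 probes were well above background on no array.
Ndfip2 A_52_P141786: acataggacgaggtacttcttcctgctata
Ndfip2 A_51_P511646: aatttgtaaaaacgtacagcctgaattgag
Ndfip2 A_51_P180916: attgcgttttcacttataaacttttagata
Peli1 A_52_P298093: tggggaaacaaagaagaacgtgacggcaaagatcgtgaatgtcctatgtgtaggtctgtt
Peli1 A_51_P232889: tctagatgatctatttttctcccatgataa
Nedd4 A_52_P648424: tgtggagtcacattcacgaaacacgaagac
Nedd4 A_51_P295022: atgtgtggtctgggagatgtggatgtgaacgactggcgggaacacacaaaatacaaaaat
Cbl A_52_P819011: catccatctacagtatttagttatcattca
Cbl A_51_P332081: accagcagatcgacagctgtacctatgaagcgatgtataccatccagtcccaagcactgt
Itch A_51_P243503: tagcgattttccttaaatctggactaagtt
Itch A_52_P625780: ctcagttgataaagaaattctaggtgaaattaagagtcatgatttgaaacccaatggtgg
Cblb A_51_P323011: atctgacttttacgtgttccaaagaaacct
Cblb A_52_P558872: ggaagtgcctactgaaaaccggaattgtat
Rnf128 A_51_P268331: taacaacaggactgccaatcagggcctagt
March1 A_51_P121031: aaccaaagcacgggcatcacgttgcacaca

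No measured ligase or adaptor passed the test between the genotypes. In limma, 0 of the 7 members passed an adjusted p of 0.05, where 0% of all 13062 genes did, and the smallest adjusted p over all genes was 0.292. At an unadjusted p under 0.05 there were 0 members, against 7.43% of all genes (970). The log2 differences of the members, USP8ff_CD4Cre minus USP8ff, ran from -0.29 to 0.0063 with a median of -0.05, and the median of all genes was 0.02. With 1 array left out the median of the members ran from -0.15 (without USP8ff_CD4Cre replicate 1) to 0.0051, with 4 of 7 positive (without USP8ff replicate 2). The median absolute difference was 0.05 for the members and 0.12 for all genes, and 6 of the 7 members had a smaller one than that of all genes.

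Of the 7, 2 had both USP8ff_CD4Cre arrays below both USP8ff arrays, Ndfip2 and Peli1, where 16.3% of all genes did. No member had both USP8ff_CD4Cre arrays above both USP8ff arrays, as 24.3% of all genes had. The other 5 members had overlapping groups. With 2 pools a group, an interval of about 0.3 on the log2 scale to either side remained for each member, so small differences were not detectable.

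**Figure D1:**
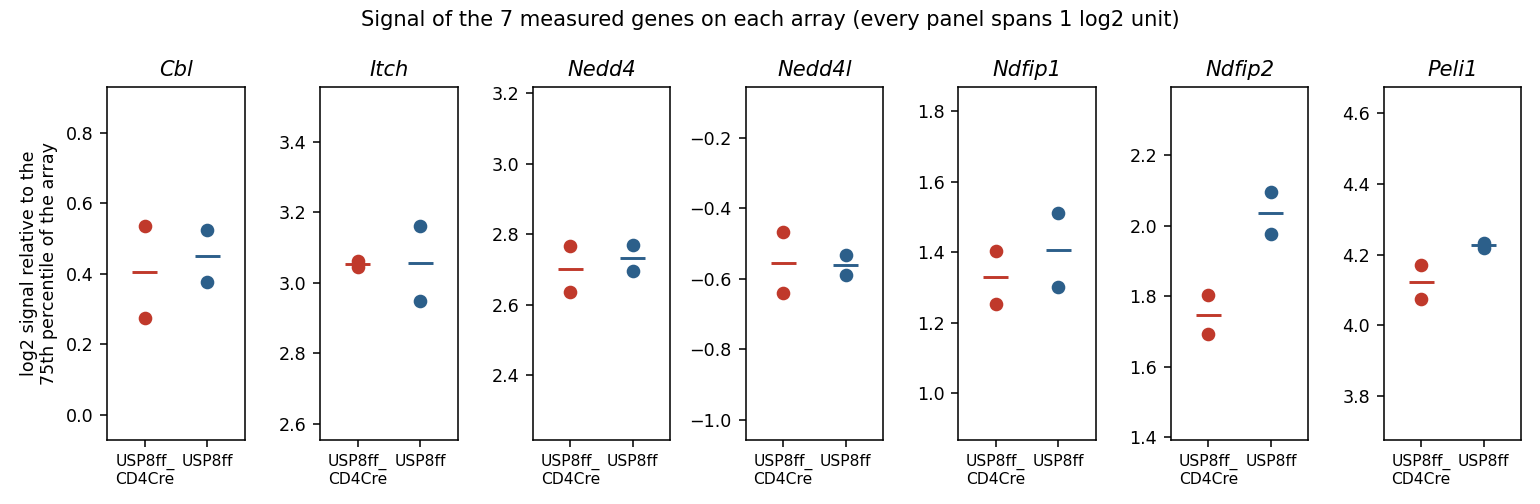
Log2 processed signal of the 7 measured members, with each array scaled to its 75th percentile, with 1 point per array and a bar at the mean of each genotype. Ndfip2 and Peli1 are the members whose 2 USP8ff_CD4Cre arrays both lie below the 2 USP8ff arrays.

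NDFIP1 and NDFIP2 sit in endosomal and Golgi membranes and bind the WW domains of NEDD4-type ligases. Of all members Ndfip2 had the largest difference. Its brightest probe, A_52_P141786 (mm9, chr14:105704021-105707129, plus strand), was at 1.69 and 1.80 in USP8ff_CD4Cre, against 1.98 and 2.10 in USP8ff. The groups did not overlap, and their means were 1.75 ± 0.08 and 2.04 ± 0.08 (SD, n = 2 each). The log2 difference was -0.29 ± 0.11 (SE), with a 95% interval of -0.58 to 0.0017, which is 81.9% of the USP8ff signal (66.9% to 100.1%). It did not pass in limma (unadjusted p = 0.0509, adjusted p = 0.671), and 15.5% of all genes had an absolute difference at least as large. In a bulk sample, fewer cells that express a gene and less RNA per cell cannot be told apart.

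The 3 Ndfip2 probes gave differences of unlike size and sign, which were not tested against each other. The genomic span of 3109 bases of A_52_P141786, for a probe of 60 bases, places it across a splice junction. The probe A_51_P511646 (chr14:105708117-105708176), on the same RefSeq transcript and nearer its 3′ end, was at 0.0045 and 0.03 in USP8ff_CD4Cre, against 0.16 and 0.15 in USP8ff. Those groups did not overlap either, and the difference was -0.14 ± 0.11 (limma adjusted p over 19038 probes = 0.822). The probe A_51_P180916 (chr14:105658916-105658975), drawn from a cDNA clone without a RefSeq accession, was at -2.76 and -2.88 in USP8ff_CD4Cre, against -3.09 and -2.83 in USP8ff. Its difference was 0.14 ± 0.14 (adjusted p = 0.861) and its groups overlapped. With the mean of the 3 probes in place of the brightest one, the Ndfip2 difference was -0.096.

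Ndfip1 was at 1.40 and 1.25 in USP8ff_CD4Cre, against 1.51 and 1.30 in USP8ff, on its only probe (A_52_P327095, chr18:38620206-38620265). The groups overlapped, and the difference was -0.08 ± 0.13 (95% interval -0.41 to 0.25, limma adjusted p = 0.899). On the array 2 further probes lie downstream of it under the name LOC100046168 and share a predicted transcript with it, so they fall outside the choice by name. The first (A_51_P304879, chr18:38624717-38624776) was at 4.04 and 3.82 in USP8ff_CD4Cre, against 4.18 and 4.05 in USP8ff, without overlap, and its difference was -0.18 ± 0.13 (adjusted p = 0.807). The second (A_52_P380997) had -0.10 ± 0.13 (adjusted p = 0.901) and its groups overlapped.

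Among the HECT ligases, Itch, whose product ubiquitinates JUNB and limits type 2 helper responses, had nearly equal levels in both genotypes. Its probe A_51_P243503 (chr2:155052451-155052514) was at 3.05 and 3.06 in USP8ff_CD4Cre, against 2.95 and 3.16 in USP8ff. Both USP8ff_CD4Cre arrays lay between the USP8ff arrays, and the difference was -0.0021 ± 0.12 (95% interval -0.31 to 0.31, limma adjusted p = 0.997). A dimmer Itch probe, A_52_P209852 (chr2:155028148-155028207), had a difference of -0.14 ± 0.16 (adjusted p = 0.878).

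Nedd4, whose product promotes T cell activation by targeting CBL-B for degradation, was at 2.64 and 2.77 in USP8ff_CD4Cre, against 2.70 and 2.77 in USP8ff, on A_52_P648424 (chr9:72597306-72597365). The difference was -0.03 ± 0.11 (95% interval -0.32 to 0.25, limma adjusted p = 0.956). The second probe, A_51_P295022 (chr9:72590466-72590525), was at 2.49 and 2.30 in USP8ff_CD4Cre, against 2.46 and 2.37 in USP8ff, a difference of -0.02 ± 0.12 (adjusted p = 0.982). Both probes thus had overlapping groups and differences within 0.05 of 0. A further probe of the locus carries the array name Gm7265, which RefSeq lists as a synonym of Nedd4, and stood outside the choice by name (A_52_P352362, chr9:72542705-72542764). It was at -2.32 and -2.75 in USP8ff_CD4Cre, against -2.17 and -2.15 in USP8ff, without overlap. Its difference was -0.38 ± 0.17 (95% interval -0.80 to 0.05, adjusted p = 0.761).

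Nedd4l, the ligase best known for clearing the epithelial sodium channel, was at -0.64 and -0.47 in USP8ff_CD4Cre, against -0.59 and -0.53 in USP8ff. Its 1 probe spans a splice junction (A_51_P305936, chr18:65363576-65365318), and both USP8ff arrays lay between the USP8ff_CD4Cre arrays. The difference was 0.0063 ± 0.12 (95% interval -0.29 to 0.30, limma adjusted p = 0.991), and its sign turned with median scaling (-0.0019) and with the normexp background (-0.0186).

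Cbl, the RING ligase that lowers antigen receptor levels on DP thymocytes, also had overlapping groups. Its brighter probe, A_52_P819011 (chr9:43958124-43958183, minus strand), was at 0.54 and 0.27 in USP8ff_CD4Cre, against 0.38 and 0.53 in USP8ff. The difference was -0.05 ± 0.14 (95% interval -0.40 to 0.31, limma adjusted p = 0.95). The second probe, A_51_P332081 (chr9:43961868-43961927, minus strand), lies further 5′ in the transcript and was at -1.17 and -1.24 in USP8ff_CD4Cre, against -1.30 and -1.22 in USP8ff. Its difference was 0.05 ± 0.11 (adjusted p = 0.941), so the sign of the Cbl difference depended on the probe.

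Peli1, which encodes Pellino-1, had 2 probes whose differences were nearly equal. The probe A_51_P232889 (chr11:21049295-21049354) was at 4.17 and 4.07 in USP8ff_CD4Cre, against 4.23 and 4.22 in USP8ff, a difference of -0.10 ± 0.11 (95% interval -0.38 to 0.17, limma adjusted p = 0.826). This is 93.0% of the USP8ff signal (77.1% to 112.3%). The probe A_52_P298093 (chr11:21048227-21048286) was at 0.70 and 0.64 in USP8ff_CD4Cre, against 0.73 and 0.80 in USP8ff, a difference of -0.10 ± 0.11 (adjusted p = 0.881). Neither probe's groups overlapped, but the differences were smaller than their standard errors.

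Over the 13 measured probes, 4 had both USP8ff_CD4Cre arrays below both USP8ff arrays, 2 of Ndfip2 and 2 of Peli1, where 16.6% of all 19038 probes did. None had the opposite order, which 22.1% of all probes had. Probes of 1 gene report the same RNA and are not replicates. In the limma fit over all probes 0 member probes passed, as did 0% of all probes, and 0 had an unadjusted p under 0.05, where 1269 of all probes did.

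**Figure D2:**
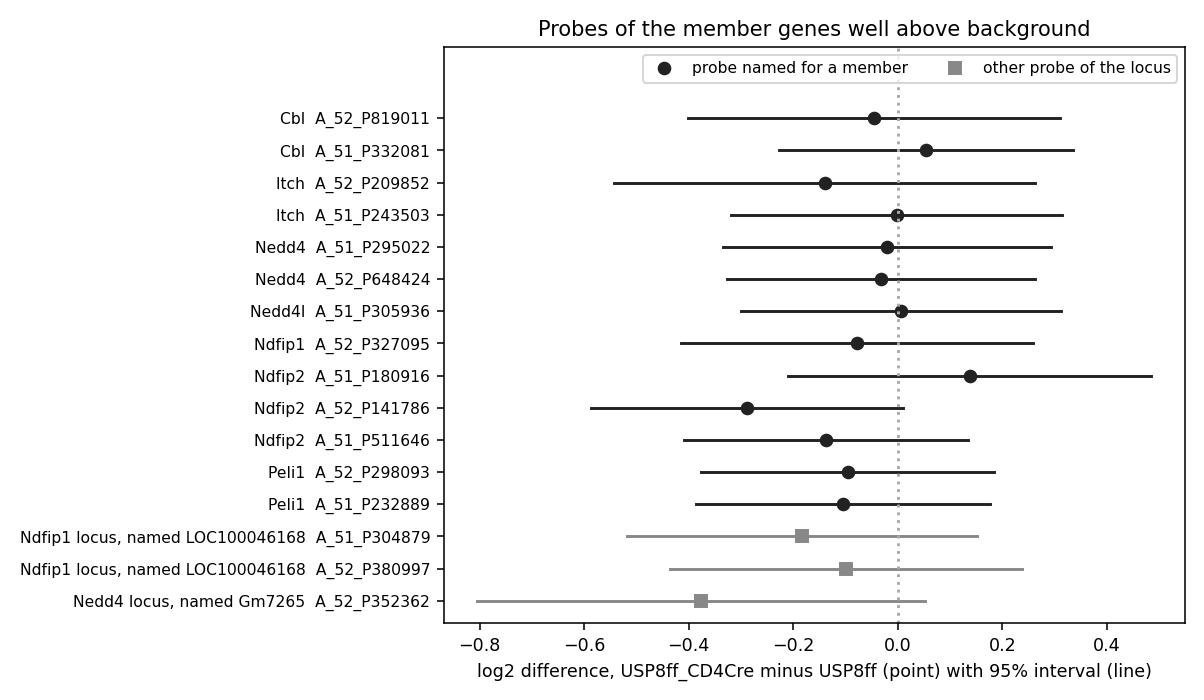
Log2 difference of each measured probe, USP8ff_CD4Cre minus USP8ff, as a point with its 95% interval from limma as a line. Black points are probes named for a member, and grey squares are the 3 further probes of the Ndfip1 and Nedd4 loci. Every interval includes 0.

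Cblb, Rnf128 and March1 could not be compared, since no probe of theirs was well above background on any array. CBL-B sets the need for CD28 co-stimulation in mature T cells. Its 2 probes (A_51_P323011, chr16:52050919-52050978, and A_52_P558872, chr16:52120279-52120338) come from cDNA clones, and neither carries a RefSeq accession. The first had processed signals of 9.26 and 6.81 scanner units in USP8ff_CD4Cre, against 11.4 and 9.01 in USP8ff, and the second had 7.53 and 5.66 in USP8ff_CD4Cre, against 9.26 and 7.35 in USP8ff. The lowest signal that counted as well above background was 32.2 and 24.9 in USP8ff_CD4Cre and 40.4 and 32.4 in USP8ff, above all of these values.

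The Rnf128 probe (A_51_P268331, chrX:136206442-136206501), which matches its RefSeq transcript, had 7.58 and 7.38 scanner units in USP8ff_CD4Cre, against 8.30 and 8.48 in USP8ff. The signal of the only probe for GRAIL, the ligase of the set with a known tie to USP8, thus stayed below the measurable level in both genotypes. With 1 probe, whether the transcript itself was low was not shown. March1 had 7.06 and 5.40 in USP8ff_CD4Cre, against 8.90 and 7.03 in USP8ff, on its RefSeq probe (A_51_P121031), and its cDNA clone probe (A_52_P64538) had 6.97 and 5.35 against 8.68 and 6.92. Signals that low have no order, and no fold is given.

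Itch had 2 dim probes as well. The only Itch probe with a RefSeq accession, A_52_P625780 (chr2:155036215-155036274), had 7.80 and 16.1 scanner units in USP8ff_CD4Cre, against 19.9 and 14.4 in USP8ff, and was well above background on no array. The same held for A_52_P177732 (chr2:154967640-154967699), with 23.1 and 17.0 in USP8ff_CD4Cre against 14.0 and 23.7 in USP8ff. The Itch level given above therefore rests on a probe from another sequence record. Over the set, 10 of 13 probes with a RefSeq accession were measured, and 3 of 7 without.

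**Figure D3:**
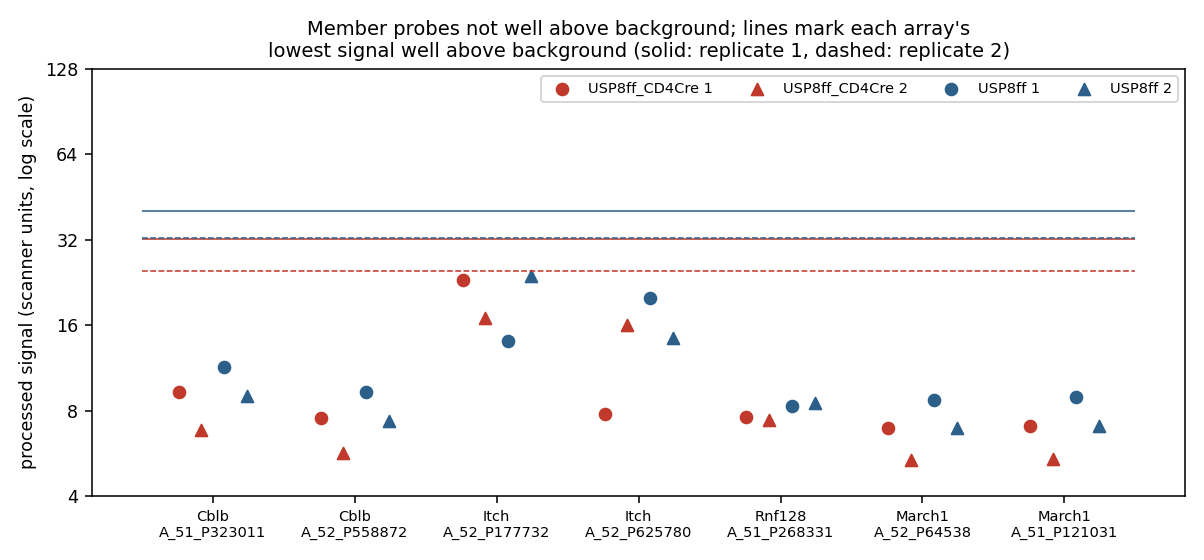
Processed signal in scanner units, on a log axis, of the 7 member probes well above background on no array, with 1 point per array. Lines mark the lowest signal well above background on each array, from 24.9 to 40.4, and every point lies under the line of its own array.

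Related genes were taken from 6 lists, of further ubiquitin ligases, CBL partners, substrates and signalling targets, anergy and inhibitory genes, deubiquitinases, and MARCH1 substrates with antigen presentation genes. Of 132 genes listed, 131 were on the array and 116 were measured. They had 58 positive and 58 negative differences, with a median near 0 (-1e-04). In limma 0 passed over all genes. At an unadjusted p under 0.05, 2 were higher and 7 lower, where 7.43% of all genes had such a p (518 higher, 452 lower). Of the 116, 24 lay wholly above and 23 wholly below USP8ff, where 24.3% and 16.3% of all genes did. Usp8, the gene that Cre was meant to delete, is in the deubiquitinase list and counts among the 7 and the 23.

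Of the 40 measured further ligases and adaptors, 27 had positive differences (median 0.05), and 14 lay wholly above and 4 wholly below USP8ff (24.3% and 16.3% of all genes), with 0 passing. Skp2, the F-box protein that targets the cell cycle inhibitor p27, was at 0.22 and 0.39 in USP8ff_CD4Cre, against -0.25 and -0.29 in USP8ff. Its difference of 0.58 ± 0.12 had an adjusted p of 0.661 in limma. Rnf13, a membrane RING ligase of the same domain type as GRAIL, had -0.24 ± 0.12 and Traf6, a ligase of NF-kB signalling, 0.19 ± 0.10.

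All 14 CBL partners were measured, with 8 positive and 6 negative differences (median 0.02). The sign of that median turned with quantile normalization (-0.03), the normexp background (-0.0094), the mean of probes (-0.04), and without USP8ff_CD4Cre replicate 2 (-0.05) or USP8ff replicate 1 (-0.03). Ubash3b, a phosphatase that binds CBL, was at -1.27 and -1.44 in USP8ff_CD4Cre, against -0.60 and -0.88 in USP8ff. Its difference was -0.62 ± 0.14 (limma adjusted p = 0.661), and Spry2, an inhibitor of receptor tyrosine kinase signalling that binds CBL, had 0.30 ± 0.12 (adjusted p = 0.671). The adaptor Cd2ap had -0.16 ± 0.12.

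Substrates and signalling targets had 11 positive and 16 negative differences among 27 measured (median -0.009). The median was 0.03 without USP8ff replicate 2, 0.0029 without USP8ff_CD4Cre replicate 1 and -0.08 without USP8ff replicate 1. Fyn, a Src family kinase of antigen receptor signalling, had -0.29 ± 0.12, Cd151, a tetraspanin that GRAIL ubiquitinates, 0.22 ± 0.10, and Sgk1, a kinase that inhibits the NEDD4L protein, -0.31 ± 0.16. At an unadjusted p under 0.05 in limma there were 0 of these 27 genes, where 7.43% of all genes had such a p. Of the 27, 3 lay wholly above and 6 wholly below USP8ff (24.3% and 16.3% of all genes). The deubiquitinases had 7 positive and 6 negative differences (median 7e-04). That median was -0.0058 with quantile normalization, -0.0076 with median scaling, -0.0135 with normexp, -0.03 with no filter and -0.02 without USP8ff replicate 1. Beside Usp8, the largest departures by p were those of Otud7b (0.25 ± 0.12), which acts on the kinase ZAP70, and the proteasome-bound Uchl5 (0.25 ± 0.16).

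Anergy and inhibitory genes had 6 positive and 15 negative differences among 21 measured, with a median of -0.06 that was 0.0035 without USP8ff replicate 2, -0.03 without USP8ff_CD4Cre replicate 2 and -0.16 without USP8ff replicate 1. Lag3, an inhibitory receptor that binds MHC class II, was at -1.31 and -1.61 in USP8ff_CD4Cre, against -0.75 and -0.76 in USP8ff. Both USP8ff_CD4Cre arrays were thus below the USP8ff arrays, and the difference was -0.71 ± 0.14 (limma adjusted p = 0.661). The inhibitory receptor Btla had -0.37 ± 0.14 (adjusted p = 0.671) and Dgka, the diacylglycerol kinase of anergic T cells, -0.22 ± 0.11 (adjusted p = 0.697).

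Of the 9 genes of the MARCH1 and antigen presentation list 5 were measured, 4 with negative differences (median -0.45, but -0.13 with the normexp background and -0.24 without USP8ff replicate 1). Cd74, the invariant chain of MHC class II, was at -2.09 and -2.12 in USP8ff_CD4Cre, against -1.53 and -1.79 in USP8ff, a difference of -0.45 ± 0.13 (limma adjusted p = 0.661). H2-DMb1 had -0.59 ± 0.20 and H2-Eb1 -0.45 ± 0.17, and neither passed. Markers of other cells were seen beside these genes. Of 18 macrophage and dendritic cell markers 7 were measured, and their summed level was 1.44 and 1.52 in USP8ff_CD4Cre against 1.88 and 1.97 in USP8ff. Of these 7, Cd74 and H2-Ab1 are also in the antigen presentation list, so the 2 lists are not independent. The cathepsin gene Ctss had -1.96 ± 0.21 and the macrophage gene Mpeg1 -1.09 ± 0.23. The brightest of these markers, H2-Ab1 (-0.03 ± 0.12) and Lyz2 (-0.19 ± 0.22), had overlapping groups. Of the 7, 3 lay wholly below USP8ff, Cd74 among them, and 1 wholly above, C1qb (16.3% and 24.3% of all genes). C1qb was well above background on 3 arrays, so it was kept through 1 genotype alone. Csf1r, Itgam, Itgax and Adgre1 were not well above background. Of 8 B cell markers 3 were measured, with summed levels of 6.64 and 6.90 in USP8ff_CD4Cre against 6.20 and 6.38 in USP8ff. That sum was carried by Igh-6 (0.53 ± 0.15), while Blnk had -0.75 ± 0.38 and Cd79b -0.08 ± 0.12, and Cd79a, Ms4a1 and Pax5 were not well above background. The part of such cells in the antigen presentation values was not tested.

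Markers of mature T cells and of NK and innate cells were also set beside the anergy list, since those cells express inhibitory receptors. Of 8 mature T cell markers 4 were well above background on all arrays, 3 of them with negative differences (median -0.07), and Il7r, Itgae and Gimap4 were so on both USP8ff arrays and on neither USP8ff_CD4Cre array. The summed level of these 7 was 6.81 and 6.94 in USP8ff_CD4Cre against 6.66 and 6.78 in USP8ff. That sum was carried by Klf2, which is also in the anergy list and whose difference was positive (0.23 ± 0.12), while Ccr7 had -1.24 ± 0.23. Of 9 markers of NK, innate or gamma-delta T cells 4 were well above background on all arrays (median -0.35), Nkg7 with -2.09 ± 0.18 and Gzma with 0.42 ± 0.20 among them, and Il2rb (-2.02 ± 0.34) was so on 3. The summed level of these 5, carried by Gzma, was 1.98 and 2.40 in USP8ff_CD4Cre against 2.10 and 2.13 in USP8ff, and Klrb1c, Ncr1 and Klrd1 were not well above background. Of 9 thymic epithelium and stroma markers 2 were measured, at summed levels of -1.92 and -1.70 in USP8ff_CD4Cre against -1.54 and -1.50 in USP8ff. The 2 went opposite ways, Epcam with -0.47 ± 0.13 and Krt5, well above background on 3 arrays, with 0.22 ± 0.12. Foxn1 and Psmb11 were not well above background. The part of such cells in the anergy and inhibitory gene values was not tested.

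**Figure D4:**
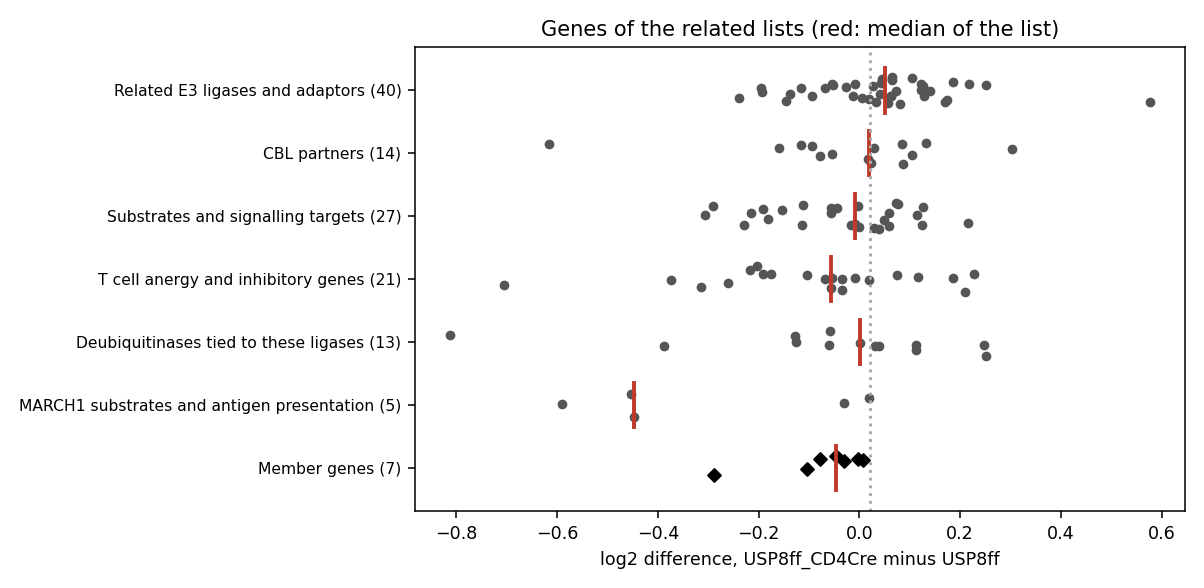
Log2 difference, USP8ff_CD4Cre minus USP8ff, of each measured gene in the 6 related lists and the member set, with 1 point per gene and a bar at the median of each list. The dotted line is the median of all genes, 0.02. List medians run from -0.45 for antigen presentation to 0.05 for further ligases.

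In the authors' deposited table there are 78 probes, 27 marked up and 51 marked down. None of the 20 member probes is in the authors' deposited table (0), nor is any related gene (0).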

How the data were processed

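RNA of sorted DP thymocytes was labelled with Cy3 from 500 ng, per the labels. The deposited scanner files hold spot intensities, background-subtracted and detrended within each array by Feature Extraction 10.7.3.1, per the file headers. The authors' deposited table gives a fold and a p-value per probe, and its software and test were not stated per the file headers. Another table has 4 columns of per-sample values that match no label and was not used.

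The log2 processed signal was set against the 75th percentile of each array. Outlier spots were dropped, which removed 17 of 41174 probes, and 19038 probes were kept, those well above background in both pools of either genotype. The brightest kept probe stood for its gene. Names came from RefSeq accessions, and members from the array's gene names. Summed levels are the log2 of the summed relative signals of a list's measured genes. The 2 genotypes were tested by lmFit and eBayes of limma 3.58.1 (R 4.3.3), with Benjamini-Hochberg adjustment over all genes or all probes and a threshold of 0.05, and the scripts were tested on simulated data. Figures were drawn with matplotlib 3.10.9. Positions are on mm9, and no exon or UTR annotation of that build was used here.

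Members and lists were chosen with earlier results of these data known. The text names all members and Usp8, and the 3 genes with the smallest p of each related list. Of marker lists it names genes among the 2 brightest and the 2 with the smallest p, and also Gimap4, Ccr7, Cd74 and C1qb. Markers named as not well above background were chosen after their status was seen.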

Additional observations from a re-analysis of the deposited data

How the results depend on the processing

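The count of genes, member genes, member probes and related genes past the threshold was 0 under each alternative run for it: leaving out each array, keeping outlier spots, an eBayes trend, a replicate block, every probe (for all genes), the mean of probes (not for member probes), a filter on all 4 arrays, no filter, the normexp background (offset 50), and median or quantile scaling. The sign turned for Cbl with its second probe (0.0538) and the mean of probes (0.004), for Ndfip2 with its dimmest probe (0.1375), and for Nedd4l with median scaling (-0.0019) and normexp (-0.0186). With 1 array left out, where the lone array of a group is assumed to vary like the other group, differences ran from -0.1767 to 0.0852 for Cbl, -0.108 to 0.1037 for Itch, -0.1836 to 0.0284 for Ndfip1, -0.0967 to 0.0339 for Nedd4, -0.0811 to 0.0938 for Nedd4l, -0.3478 to -0.2297 for Ndfip2 and -0.1532 to -0.0553 for Peli1. The unadjusted limma p of Ndfip2 was 0.0385 with quantile normalization, 0.0357 with normexp, 0.0476 with the filter on all 4 arrays, 0.0338 with the trend and 0.417 with the mean of probes. Genes at an unadjusted p under 0.05 numbered 970, but 396 without USP8ff_CD4Cre replicate 2. With no filter the median of all genes was -0.126. The labels do not pair the samples. With the replicate block 1338 genes had an unadjusted p under 0.05 and Ndfip2 had -0.2887 (p = 0.0472, adjusted p = 0.482); deviations of same-numbered arrays correlated at 0.321 across genes. The number of arrays limits the precision.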
